A study of Bos taurus with 3 samples.

Results

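Of the 8 genes *TRPV3*, *TRPV6*, *TRPM6*, *TRPM7*, *ATP2B1*, *ATP2B4*, *CNNM4* and *SLC41A1*, which encode calcium and magnesium channels, pumps and exporters, 7 had a row among the 19533 named rows of the count table. *TRPV6* was not analysed here. The members were taken by name and followed across 6 cell states set by the UMIs (unique molecular identifiers, each standing for 1 captured transcript) of *DLK2*, *GJA1* and *IGFBP5*. The cells were epithelial cells of the rumen of 3 adult lactating Holstein cows, all under 1 condition, with 1 droplet library of transcript 3' ends per cow. Cow 1 gave 3369 cells, cow 2 gave 7401 and cow 3 gave 9958, so that 20728 cells and 237958901 UMIs were counted, with a median of 10514 UMIs per cell. Each cow was 1 animal with 1 library, so an animal cannot be told apart from its library.

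Ruminants take up most of their magnesium, and part of their calcium, across the wall of the forestomach. Such transport needs a channel that lets the ion into the cell, proteins that bind it inside, and a pump or exchanger that drives it out on the blood side. TRPV channels and the kinase-linked channels TRPM6 and TRPM7 belong to the first step, and the calcium ATPases of the plasma membrane (*ATP2B1*, *ATP2B4*) and the magnesium exporters *CNNM4* and *SLC41A1* belong to the last.

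The UMI totals set what could be measured. *ATP2B1*, the widely expressed calcium pump of the plasma membrane, had 8211 UMIs in 6443 cells. *TRPM7*, a channel for magnesium and calcium that carries its own kinase, had 3623 UMIs in 3194 cells. *SLC41A1*, a magnesium transporter of the plasma membrane, had 578 UMIs in 568 cells. The other members were sparse and did not pass the count filter of the test. *ATP2B4*, a second calcium pump of the plasma membrane, had 193 UMIs, *CNNM4*, which exports magnesium in exchange for sodium, had 132, *TRPV3*, a cation channel best known from skin keratinocytes, had 38, and *TRPM6*, the epithelial relative of *TRPM7*, had 9. These totals were not read as levels between genes, because transcript lengths and the efficiency of capture differ.

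In cow 1, cow 2 and cow 3 in that order, *ATP2B1* stood at 34.9, 32.4 and 36.3 CPM over all cells, CPM being the UMIs of a gene per 1000000 UMIs of all genes. *TRPM7* stood at 22.2, 11.8 and 15.7. *SLC41A1* stood at 3.11, 2.33 and 2.27. Cow 1 therefore held the highest *TRPM7* level and cow 2 the lowest, whereas *ATP2B1* differed little between the animals. *TRPV3* had 0.411, 0.179 and 0.0480 CPM, with the most in cow 1, and *ATP2B4* was highest in cow 3, at 1.31 against 0.694 and 0.316. *CNNM4* had 0.488, 0.717 and 0.432 CPM. *TRPM6* had 0.103 CPM in cow 1, no UMI in cow 2 and 0.0480 in cow 3, so all 3 animals were at or near the limit of counting.

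A cell was counted as *GJA1*+ or *IGFBP5*+ with at least 2 UMIs of that gene, and as *DLK2*+ with at least 1. *GJA1* encodes connexin 43, the gap junction protein of the epithelium, *DLK2* a membrane protein related to Notch ligands, and *IGFBP5* a secreted binding protein of insulin-like growth factors. The *GJA1* and *IGFBP5* state held 754 cells, the *GJA1* state without *IGFBP5* 350, the *IGFBP5* state 4316, the *DLK2* state 5225 and the no-marker state 7474. The mixed state, *DLK2*+ cells that were also *GJA1*+ or *IGFBP5*+, held 2609 cells, of which 2411 were *DLK2*+ and *IGFBP5*+ only. The states differed in depth. The median was 17547 UMIs per cell in the *GJA1* and *IGFBP5* state and 14549.5 in the *GJA1* state, against 12218.5 in the *IGFBP5* state, 9074 in the *DLK2* state and 9460.5 in the no-marker state. Their median mitochondrial shares were 18.4%, 14.2%, 13.0%, 10.1% and 12.0%, and 15.4% of the cells of the *GJA1* state had under 2% mitochondrial UMIs (31.1% in cow 1).

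The cells were described by marker lists. This is no independent check of the epithelial label, because the authors selected epithelial clusters by *KRT14*, *KRT5* and *KRT19* and removed other cell types by marker genes. The basal list holds *KRT5* and *KRT14*. Of the fibroblast list 5 of 6 genes had a row, and of the melanocyte list 2 of 4. The summed basal list had means of 133 to 153 UMIs per 10000 UMIs over the 6 states. In every state the mean over cows of the fibroblast, smooth muscle and melanocyte lists was at or below 0.0145 per 10000, with *RGS5* of the smooth muscle list at 0, and that of the immune and endothelial lists was at or below 0.113. The spinous list was highest in the *GJA1* state, at 57.3 ± 33.3 per 10000 (SD, n = 3), and stood at 25.5 ± 8.77 in the *GJA1* and *IGFBP5* state and 5.20 ± 0.485 in the *DLK2* state. A total of 35 barcode sequences, in 70 cells, occurred in more than 1 cow. No cell type known to lack the members was among the cells, so the background from free RNA was not measured.

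Of the 3 members that passed the count filter, *TRPM7* was the only one to pass the threshold in the reported setting, and it was lower in both *GJA1* states than in the *DLK2* state in each of the 3 cows. The *DLK2* state had 23.5 CPM in cow 1, 13.3 in cow 2 and 16.6 in cow 3 (17.8 ± 5.18, SD, n = 3). The *GJA1* and *IGFBP5* state had 20.0, 7.46 and 13.0, and the *GJA1* state 14.8, 7.10 and 7.79. Across animals the groups overlapped, since cow 1 was the highest and cow 2 the lowest in all 6 states, but within an animal the *DLK2* state was always above both *GJA1* states. The mean of both *GJA1* states was lower than the *DLK2* state by a log2 fold change of -0.51 (SE 0.13, 95% interval -0.79 to -0.24, edgeR adjusted p = 0.00237, cow as a term in the model). Fewer transcripts per cell and more of all other transcripts per cell cannot be told apart in a level in CPM, and the part of the spinous genes and the mitochondrial share, which were also higher in both *GJA1* states, was not tested.

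The call on *TRPM7* depended on the setting. It was lost without cow 2 (log2 fold change -0.37, edgeR adjusted p = 0.0557), without the cow in the model (-0.48, adjusted p = 0.208), with states set by at least 1 UMI of each gene (-0.23, adjusted p = 0.156) and with each cell thinned to 5000 UMIs before the states were set (-0.16, adjusted p = 0.628). It was kept without mitochondrial genes (-0.52) and without cells under 2% mitochondrial UMIs (-0.54). The direction was the same in all 12 alternatives, and their adjusted p ranged from 0.000137 to 0.628. The thinned difference had a 95% interval from -0.64 to 0.32, which still includes the reported value. In thinned cells with no *GJA1* UMI *TRPM7* had 23.0, 13.5 and 16.3 CPM in cows 1, 2 and 3, and in those with 4 or more it had 23.5, 13.2 and 16.0, the latter from 28 *TRPM7* UMIs. Within cows, the bin with 4 or more was higher in cow 1 and lower in cows 2 and 3. The part of depth per cell in the difference between the states was not tested. In a split chosen after the values were seen, cells with at least 2 *GJA1* UMIs, mixed cells included, had less *TRPM7* in CPM than all other cells in each cow, with ratios of 0.837 (95% interval 0.700 to 0.996), 0.666 (0.514 to 0.850) and 0.746 (0.580 to 0.946; exact binomial, counting error only), and an exact two-sided permutation over the 3 cows gave p = 0.25, the smallest it can give. Under the 6 other settings at full depth, the ratio was below 1 in each cow and ran from 0.595 to 0.916, although the interval of cow 1 reached past 1 in 4 of them. In thinned cells it was 0.922, 0.982 and 0.847 in cows 1, 2 and 3 with *GJA1* counted before thinning, and 1.04, 0.973 and 0.707 with it counted after, with every interval including 1. The ratio pooled over cows (0.851) mixes animals with different *TRPM7* levels and lay above each within-cow value. A Mantel-Haenszel ratio, which compares cells within each cow and then combines the cows, was 0.764, and 0.916 and 0.938 in thinned cells with *GJA1* counted before and after thinning. At full depth the share of cells with a *TRPM7* UMI was 20.3% ± 8.97 in the *GJA1* and *IGFBP5* state and 14.6% ± 2.36 in the *DLK2* state (SD, n = 3), an order opposite to that of the levels in CPM. In cells thinned with their states kept it was 8.17% and 8.42%, so no order was read from the shares of these states. The *GJA1* state had a share of 11.9% ± 2.84 at full depth and 4.64% ± 2.04 in thinned cells with states kept. By mean it was thus below the *DLK2* state at both depths, the same order as in CPM, which was not tested.

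**Figure D1:**
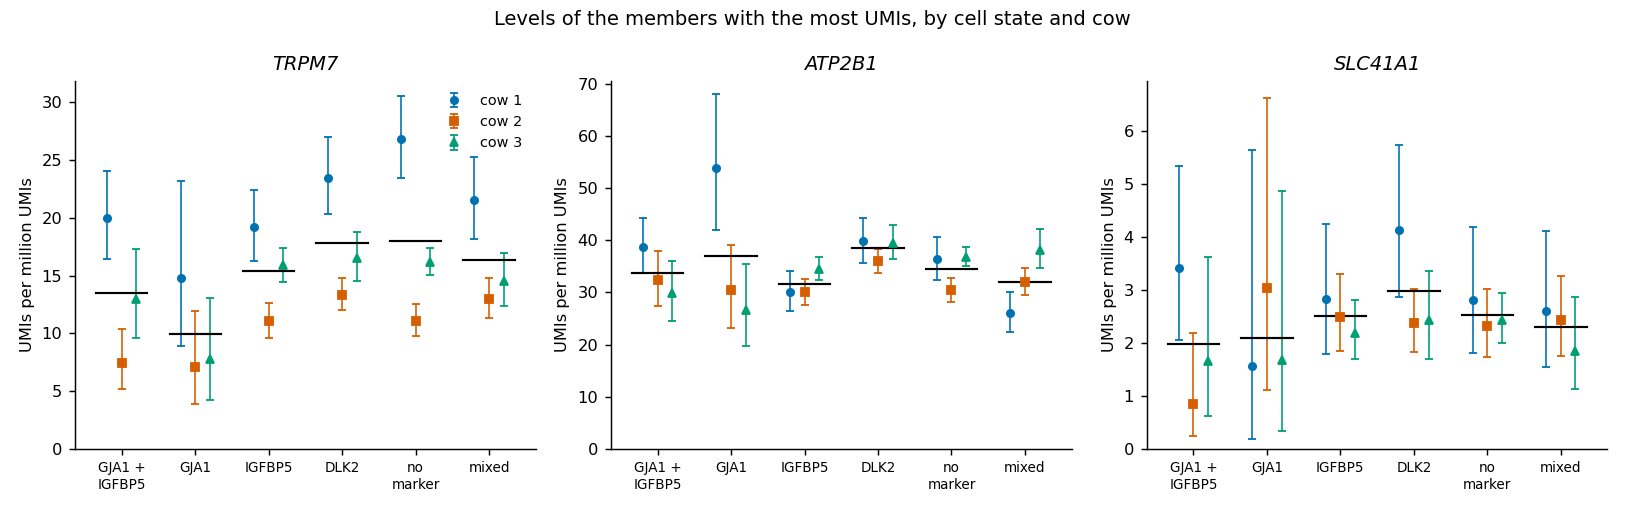
Levels of *TRPM7*, *ATP2B1* and *SLC41A1* as CPM (vertical axes, linear from 0) in each cell state, with 1 point per cow, exact 95% Poisson intervals that cover counting error only, and the mean of 3 cows as a bar. *TRPM7* of cow 1 lies above that of the other cows in every state, and the *GJA1* state has the lowest mean, 9.91; the means of *ATP2B1* lie between 31.5 and 38.5.

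Ordered by the mean of 3 cows, *TRPM7* was highest in the no-marker state (18.0 ± 8.02 CPM) and then in the *DLK2* state (17.8 ± 5.18), the mixed state (16.3 ± 4.55), the *IGFBP5* state (15.4 ± 4.11), the *GJA1* and *IGFBP5* state (13.5 ± 6.27) and the *GJA1* state (9.91 ± 4.28; all SD, n = 3). Neighbours in this order were compared by their difference within each cow. The *DLK2* state was above the mixed state by 1.45 ± 0.931 (SD, n = 3) and the *GJA1* and *IGFBP5* state above the *GJA1* state by 3.57 ± 2.78, both in 3 of 3 cows, and the other neighbours did not differ beyond their spread. By the model, the *GJA1* and *IGFBP5* state stood above the *GJA1* state by a log2 fold change of 0.56 (SE 0.23), which did not pass the threshold (edgeR adjusted p = 0.250) and turned to -0.17 with at least 1 UMI setting each state. The *DLK2* state differed from the no-marker state by 0.02 (95% interval -0.18 to 0.22) and the *IGFBP5* state from the no-marker state by -0.06 (-0.26 to 0.14), neither of which passed.

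*ATP2B1* passed the threshold in no comparison of states with all 3 cows. Its level in the *DLK2* state was 39.9, 36.0 and 39.5 CPM in cows 1, 2 and 3. In the *GJA1* state it was 53.9, 30.4 and 26.7, and in the *GJA1* and *IGFBP5* state 38.7, 32.4 and 29.9. Cow 1 and the other cows thus pointed in opposite directions for the *GJA1* state, and the groups overlapped. The model gave -0.01 (SE 0.12, 95% interval -0.25 to 0.24, edgeR adjusted p = 0.964) for the *GJA1* states against the *DLK2* state. Without cow 1 the difference became -0.26 and passed the threshold (edgeR adjusted p = 0.0310), and without cow 3 it was 0.13 and did not pass, so the value rests on which animals enter. Over its 12 alternatives the adjusted p ran from 0.0310 to 0.999. The other comparisons of *ATP2B1* gave 0.05 between the *GJA1* and *IGFBP5* state and the *GJA1* state, 0.13 for the *DLK2* state against the no-marker state and -0.03 for the *IGFBP5* state against the no-marker state, and none passed in the main setting or any alternative.

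In the order of its state means, *ATP2B1* ran from 38.5 ± 2.14 CPM in the *DLK2* state over 37.0 ± 14.7 in the *GJA1* state, 34.5 ± 3.58 in the no-marker state, 33.7 ± 4.52 in the *GJA1* and *IGFBP5* state and 32.1 ± 6.12 in the mixed state to 31.5 ± 2.62 in the *IGFBP5* state (SD, n = 3). No pair of neighbours differed beyond its spread within cows. Within each cow the *DLK2* state was above every other state, except the *GJA1* state of cow 1. This was read from the values and not tested as such. In thinned cells the level was lowest where *DLK2* had no UMI in each of the 3 cows, at 30.9, 32.5 and 35.3 CPM. It was 49.7, 38.0 and 42.8 in cells with 2 *DLK2* UMIs, and 34.1, 38.9 and 55.6 in cells with 3 or more, which rested on 89 *ATP2B1* UMIs. This is given as a description over bins of the same cells, without a test.

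*SLC41A1* did not pass the threshold in any comparison. Its *DLK2* state had 4.13, 2.37 and 2.43 CPM in cows 1, 2 and 3, its *GJA1* and *IGFBP5* state 3.42, 0.853 and 1.66, and its *GJA1* state 1.56, 3.04 and 1.67. Here too cow 2 had more in the *GJA1* state and the other cows less, and the *GJA1* state rested on 2, 6 and 3 UMIs. The *GJA1* states against the *DLK2* state gave -0.29 (SE 0.29, 95% interval -0.88 to 0.31, edgeR adjusted p = 0.413), an interval that leaves room for a change of either sign. The other comparisons gave -0.03, 0.09 and 0.04, in the order used for *ATP2B1*. Ordered by mean, the *DLK2* state (2.98 ± 0.999), no-marker state (2.52 ± 0.260), *IGFBP5* state (2.51 ± 0.317), mixed state (2.29 ± 0.391), *GJA1* state (2.09 ± 0.827) and *GJA1* and *IGFBP5* state (1.98 ± 1.31) followed each other (SD, n = 3), and the *IGFBP5* state over the mixed state was the only step beyond its spread within cows.

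Of the 3 members that passed the count filter, the test of the *GJA1* states against the *DLK2* state called 0 higher and 1 lower, against a background of 24.4% of 10760 genes called higher and 28.4% called lower. The filter left out the 4 sparse members, because too few of their sums reached its minimum, so the count of calls says nothing of them. The *GJA1* and *IGFBP5* state against the *GJA1* state called 0 of 3 members in either direction (background 1.31% higher and 1.19% lower). The *DLK2* state against the no-marker state called 0 of 3 (background 5.22% higher and 7.83% lower), as did the *IGFBP5* state against the no-marker state (background 2.64% higher and 1.65% lower, with 61.5% of the called genes higher, or 79.4% with DESeq2 and its scaling). In these last 3 comparisons an unadjusted p under 0.05 was given by edgeR to 1, 0 and 0 members, the 1 being *TRPM7* between the states with *GJA1*, and DESeq2 also called 0 in each, 1 of the members having no adjusted p there in the last.

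**Figure D2:**
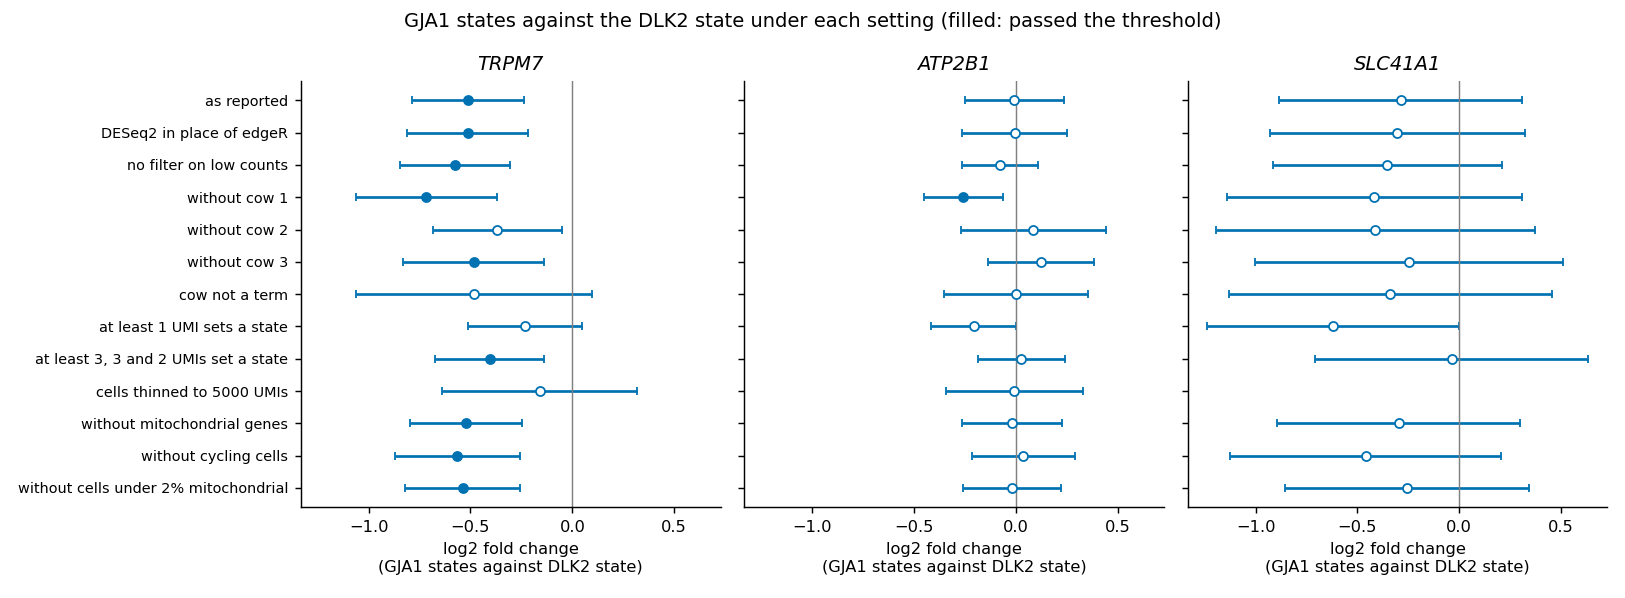
Log2 fold changes (horizontal axis) of *TRPM7*, *ATP2B1* and *SLC41A1* in the *GJA1* states against the *DLK2* state, as reported and under each of the 12 alternatives (rows), with 95% intervals, filled where the threshold was passed. *TRPM7* is filled in the reported setting and 8 alternatives, *ATP2B1* in the setting without cow 1 only and *SLC41A1* in none; *SLC41A1* has no point for thinned cells, where it did not pass the filter.

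*TRPV3* had its highest mean levels in the *GJA1* and *IGFBP5* state and the *GJA1* state, with 11 and 4 of its 38 UMIs there and the rest in the far more numerous cells of the other states. In the *GJA1* and *IGFBP5* state it had 7, 4 and 0 UMIs in the 3 cows in order, or 1.26, 0.853 and 0 CPM. In the *GJA1* state it had 1, 2 and 1 UMIs, or 0.780, 1.01 and 0.556 CPM. The *DLK2* state, with 2, 3 and 0 UMIs in more cells, had 0.236, 0.108 and 0 CPM. Cows 1 and 2 were higher in both *GJA1* states than in any other state, and in cow 3 the count of 0 in the *GJA1* and *IGFBP5* state allows up to 0.830 CPM (3 counts). The no-marker state was lowest by mean (0.0827 ± 0.0359) and no neighbours in the order of the 6 states differed beyond their spread.

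All cells with at least 2 *GJA1* UMIs, mixed cells included, were then set against all other cells, a split chosen after the values were seen. In cow 1, 8 *TRPV3* UMIs in 471 such cells stood against 8 in the 2898 others, or 0.974 against 0.261 CPM, a ratio of 3.74 (95% interval 1.22 to 11.4, exact binomial, counting error only). In cow 2, 9 UMIs in 432 cells stood against 8 in 6969, a ratio of 11.4 (3.91 to 34.1). In cow 3, 2 UMIs in 399 cells stood against 3 in 9559, a ratio of 10.97 (0.917 to 95.8). The direction was the same in 3 of 3 cows, and the interval of cow 3 included 1. An exact two-sided permutation over 3 pairs gave p = 0.25, which is the smallest it can give. Over all cows, 19 UMIs stood against 19 in 1302 and 19426 cells, at 0.838 and 0.0883 CPM. Their pooled ratio of 9.49 mixes animals, since cow 1 had both the highest *TRPV3* level over all its cells and the largest share of cells with at least 2 *GJA1* UMIs, and the Mantel-Haenszel ratio was 6.36.

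The Mantel-Haenszel ratio of *TRPV3* was 4.40 without cow 2, 6.03 without cow 3 and 11.3 without cow 1. It was 6.64 without cells with *DLK2*, 6.11 without cells under 2% mitochondrial UMIs and 4.65 with 1 *GJA1* UMI as the limit. In cells thinned to 5000 UMIs it was 5.63 (6 against 9 UMIs) with *GJA1* counted before thinning and 3.71 (3 against 12 UMIs) with it counted after. Counted before, the ratio was 3.28, 31.8 and 7.81 in cows 1, 2 and 3, from 3 against 5, 2 against 1 and 1 against 3 UMIs. Counted after, cow 1 had 2 against 6 UMIs and cow 3 had 1 against 3. Cow 2 then had no *TRPV3* UMI in cells with at least 2 *GJA1* UMIs, so the direction was not kept in all 3 cows. These values rest on few transcripts, since 36 cells held a *TRPV3* UMI, 18 of them with at least 2 *GJA1* UMIs, and the median depth of the 36 was 16260 UMIs. In the reported setting *TRPV3* did not pass the count filter. It passed without cow 1 (log2 fold change 3.20, called higher), but a gene this low can pass a filter through the states in which it is high, so that call is given as no support for the difference. In the edgeR fit without a filter the *GJA1* states stood above the *DLK2* state by a log2 fold change of 2.82 (SE 0.93, adjusted p = 0.00860), given as a description of a gene with few UMIs.

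**Figure D3:**
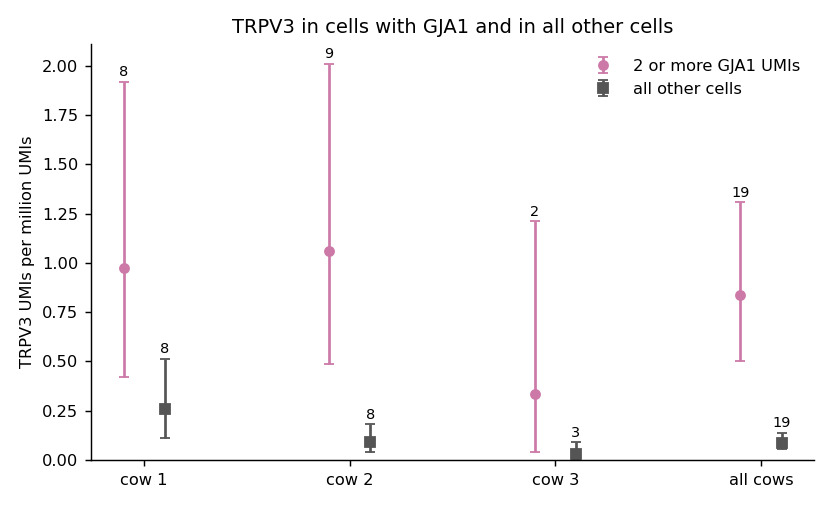
*TRPV3* CPM (vertical axis, linear from 0) in cells with at least 2 *GJA1* UMIs and in all other cells, by cow and pooled over all cows, with exact 95% Poisson intervals of counting error and the number of *TRPV3* UMIs above each. Cells with *GJA1* lie higher in each cow, at 0.974 against 0.261, 1.06 against 0.0926 and 0.335 against 0.0305.

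*TRPM6* could not be compared. Its 9 UMIs were 3 in the *DLK2* state, 3 in the no-marker state, 2 in the *IGFBP5* state and 1 in the *GJA1* state, and the remaining states held none. Counts of 0 in the *GJA1* and *IGFBP5* state allow up to 0.540, 0.640 and 0.830 CPM in cows 1, 2 and 3 by the limit of 3 counts (0.664, 0.787 and 1.02 as the upper end of the two-sided Poisson intervals that are plotted), whereas its highest level elsewhere was 0.780 in the *GJA1* state of cow 1, a single UMI, and 0.236 in the *DLK2* state of the same cow. A difference between states was not detectable at this depth.

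*ATP2B4* went the other way from *TRPV3*, with few UMIs where *GJA1* was high. The *DLK2* state had 0.944, 0.502 and 1.28 CPM in cows 1, 2 and 3, and the *GJA1* and *IGFBP5* state had 0.180, 0 and 1.11, the latter from 1, 0 and 4 UMIs. The *GJA1* state had 0, 0 and 1 UMIs. By mean the *DLK2* state (0.910 ± 0.392, SD, n = 3) was followed by the no-marker (0.889 ± 0.669), *IGFBP5* (0.769 ± 0.538), mixed (0.523 ± 0.190), *GJA1* and *IGFBP5* (0.429 ± 0.594) and *GJA1* states (0.185 ± 0.321), with no neighbours beyond their spread. Cow 3 was the highest of the cows in every state. Cells with at least 2 *GJA1* UMIs held 8 *ATP2B4* UMIs and the others 185, or 0.353 against 0.859 CPM, and the exact permutation gave p = 0.25, its smallest. Within cows the ratio was 0.467 (0.0900 to 1.54) in cow 1 and 0.628 (0.201 to 1.50) in cow 3, and cow 2 had 0 against 30 UMIs. The Mantel-Haenszel ratio was 0.464, from 0.305 without cow 3 to 0.563 without cow 2, and the interval of each computable within-cow ratio included 1. In the fit without a filter the *GJA1* states were lower than the *DLK2* state by a log2 fold change of -1.66 (SE 0.69, edgeR adjusted p = 0.0498). In the settings where *ATP2B4* passed the filter it did not pass the threshold, with -1.23 without cow 1, -1.16 without cow 2 and -0.87 with at least 1 UMI setting the states (edgeR adjusted p from 0.216 to 0.244).

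*CNNM4* had no neighbouring states that differed beyond their spread. Its mean was 0.661 ± 0.208 CPM in the *IGFBP5* state, 0.625 ± 0.172 in the no-marker state, 0.531 ± 0.381 in the *DLK2* state, 0.524 ± 0.508 in the *GJA1* state, 0.399 ± 0.0317 in the mixed state and 0.244 ± 0.282 in the *GJA1* and *IGFBP5* state (SD, n = 3). Cow 2 held 27 of the 34 UMIs of the *DLK2* state. The ratio of cells with *GJA1* to all others was 0.701 (0.131 to 2.45) in cow 1, 0.308 (0.0365 to 1.16) in cow 2 and 1.18 (0.233 to 3.68) in cow 3, so the direction differed between cows and every interval included 1. The Mantel-Haenszel ratio was 0.600, 0.898 without cow 2, 0.451 without cow 3 and 0.379 with 1 *GJA1* UMI as the limit, and it rested on 8 UMIs in cells with *GJA1*. In thinned cells it was 0.865 with *GJA1* counted before thinning and 1.05 with it counted after, so its direction was not kept.

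**Figure D4:**
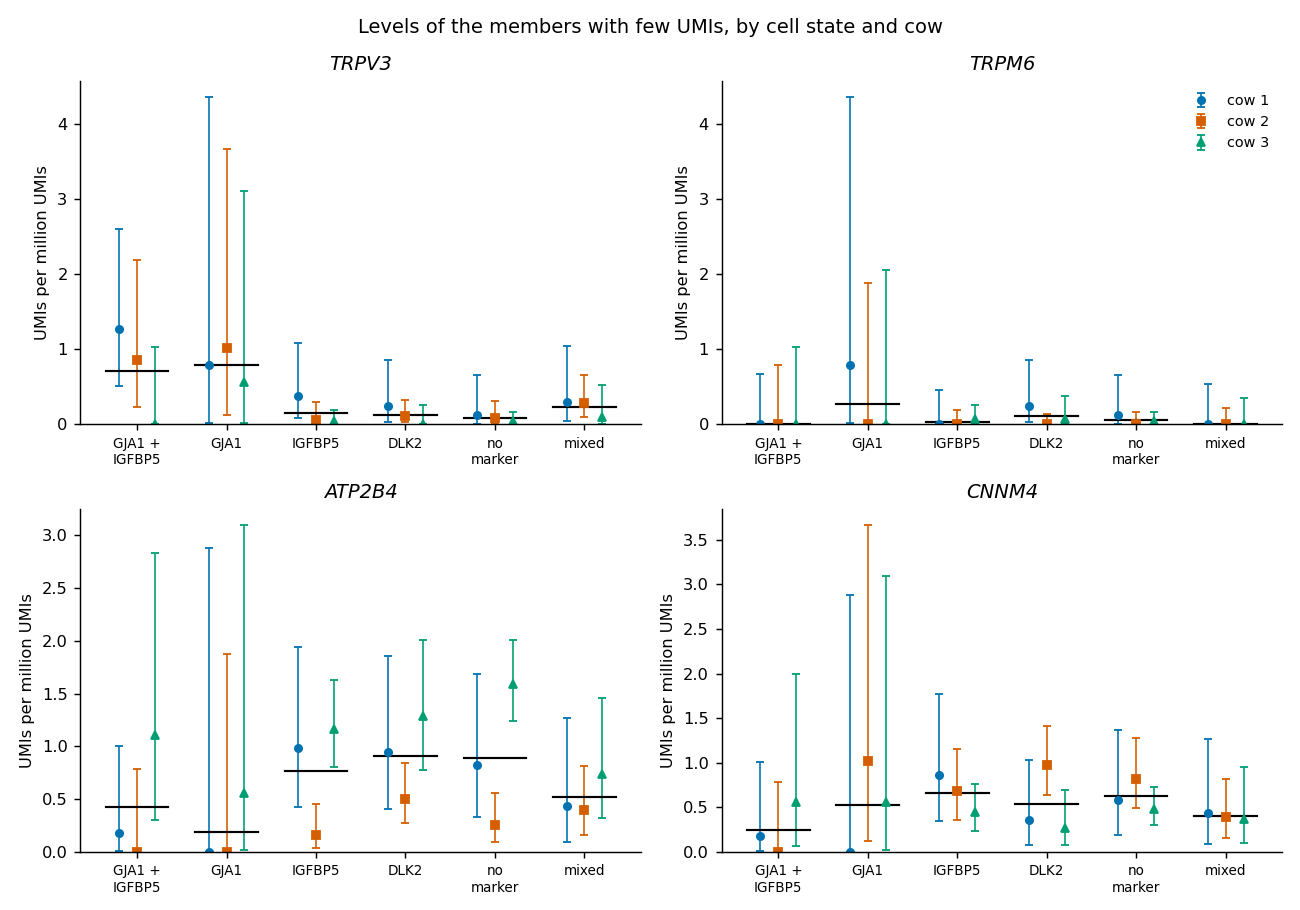
Levels of *TRPV3*, *TRPM6*, *ATP2B4* and *CNNM4* as CPM (vertical axes, linear from 0) by cell state, with 1 point per cow, exact 95% Poisson intervals of counting error, and the mean of 3 cows as a bar. The means of *TRPV3* are 0.704 and 0.784 in both states with *GJA1* and at or below 0.221 elsewhere, and those of *ATP2B4* are lowest, 0.429 and 0.185, in these states.

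A total of 3703 cells held at least 3 UMIs of a list of cycling genes. Pooled over cows, these were 24.0% of the no-marker state, 8.38% of the *DLK2* state and 17.0% and 18.3% of both *GJA1* states. They were 27.6% of the cells of cow 3 against 7.70% of those of cow 2. In cows 1, 2 and 3 they were 3.71%, 3.24% and 19.2% of the *DLK2* state. The *GJA1* and *IGFBP5* state had 18.8%, 13.7% and 18.1%, and the *GJA1* state 15.1%, 22.0% and 17.8%. The *DLK2* state was thus below both *GJA1* states in cows 1 and 2 but not in cow 3. *TRPM7* had 14.9 ± 4.62 CPM in cycling cells and 16.8 ± 5.50 in the others (SD, n = 3), lower in cows 1 and 2 and higher in cow 3. *ATP2B1* had 33.8 ± 3.79 and 34.5 ± 1.61. *SLC41A1* had 2.86 ± 0.374 and 2.49 ± 0.620. Within cows, *ATP2B1* was also lower in cycling cells in cows 1 and 2 and higher in cow 3. *SLC41A1* was lower in cow 1 and higher in cows 2 and 3, so the direction differed between cows for each of these genes. Without cycling cells *TRPM7* still passed in the *GJA1* states against the *DLK2* state (-0.56, edgeR adjusted p = 0.00230).

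Genes with a similar pattern over the 18 sums of cows and states were sought by Pearson's r of log2 CPM, after the mean of each cow was taken out, among 7714 genes. The most like *TRPM7* were *GSK3B*, a kinase of glycogen metabolism and Wnt signaling (r = 0.946), *SETD9* (0.942) and *ITGA3*, an integrin of the basement membrane (0.940). The most like *ATP2B1* were *GGCX*, the vitamin K-dependent carboxylase (0.882), *LRRFIP2* (0.878) and *SERINC1* (0.878), and the most like *SLC41A1* were *ELP3* (0.903), *TAF1B* (0.857) and *HOXC9* (0.856). These are descriptions of 18 points that share 3 animals, cells of the same libraries and the depth of each state.

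The other genes of calcium and magnesium handling were taken from a list of 80, of which 74 had a row, 5 of these had 0 UMIs and 42 passed the count filter. In the *GJA1* states against the *DLK2* state, 12 of the 42 were called higher, 7 lower and 23 neither (median log2 fold change 0.05, against -0.06 over all genes tested). The background was 24.4% higher and 28.4% lower. Named by rule, as the largest changes, were *CALML5*, *CLDN19* and *MRS2* among those called higher and *TUSC3*, *ITPR1* and *PKD2* among those called lower. The other genes below were named after their values were seen, the called ones because few were called in each group.

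Among 9 plasma membrane channels, *TRPV4*, a channel gated by osmotic and mechanical stimuli, and *TRPM4*, activated by calcium inside the cell, were higher, and *PKD2* (polycystin) and *ORAI2*, a store-operated calcium channel, were lower. *PKD2* stood at 10.9, 6.74 and 5.68 CPM in the *DLK2* state in cows 1, 2 and 3, against 2.70, 2.35 and 1.66 in the *GJA1* and *IGFBP5* state and 0.780, 1.01 and 1.11 in the *GJA1* state. Its log2 fold change was -2.16 (SE 0.31, edgeR adjusted p = 2.94e-06), and the groups did not overlap. In the *GJA1* state its levels lay below that of 3 counts, which was 2.34, 1.52 and 1.67 CPM in cows 1, 2 and 3. *TRPV4* changed by 0.98 (SE 0.23, edgeR adjusted p = 0.00119) and *TRPM4* by 0.50 (SE 0.11, adjusted p = 0.000802), and both lost the call in thinned cells. *ORAI2* changed by -1.77 (SE 0.39, edgeR adjusted p = 0.000550) and lost it without the cow in the model.

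Inside the cell, both inositol trisphosphate receptors called were lower. Another receptor of this family, *ITPR3*, pointed the other way and was not called (log2 fold change 0.60, SE 0.41, edgeR adjusted p = 0.227). *ITPR1*, a calcium release channel of the endoplasmic reticulum, had 24.8, 6.38 and 10.6 CPM in the *DLK2* state against 2.88, 2.13 and 3.32 in the *GJA1* and *IGFBP5* state and 1.56, 0.507 and 0.556 in the *GJA1* state (log2 fold change -2.97, SE 0.27, edgeR adjusted p = 3.39e-09), and *ITPR2* changed by -1.62 (SE 0.13, adjusted p = 7.01e-10). The *ITPR1* levels of the *GJA1* state lay below that of 3 counts, which was 2.34, 1.52 and 1.67 CPM in cows 1, 2 and 3. The third gene called among 8 internal channels, *TMBIM6*, was higher by 0.67. Of 4 other calcium pumps and exchangers, 1 was called, *ATP2A2*, the pump that fills the endoplasmic reticulum with calcium, which was higher by 0.77 (SE 0.09, edgeR adjusted p = 1.02e-07).

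Among genes of calcium binding, *CALML5*, a calmodulin-like protein of differentiating keratinocytes, had 25.8, 10.1 and 134 CPM in the *GJA1* state, 1.98, 7.68 and 9.69 in the *GJA1* and *IGFBP5* state and 0.472, 0.323 and 0.135 in the *DLK2* state, with no overlap (log2 fold change 5.97, SE 0.59, edgeR adjusted p = 1.61e-08). *CALM3*, which encodes calmodulin, changed by 0.78 and *CANX*, a chaperone of the endoplasmic reticulum, by 0.57. *CALM2*, another calmodulin gene, pointed the other way at -0.21 (SE 0.07, edgeR adjusted p = 0.0110), too small a change to be called. The value of *CALM3* is uncertain where the counting split reads between near-identical genes.

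Of 8 magnesium genes, 2 were higher and 2 lower. *MRS2*, the magnesium channel of the inner mitochondrial membrane, had 7.74, 7.04 and 9.13 CPM in the *GJA1* and *IGFBP5* state, 13.3, 8.12 and 10.0 in the *GJA1* state and 4.96, 4.77 and 3.78 in the *DLK2* state, with no overlap (log2 fold change 1.11, SE 0.16, edgeR adjusted p = 5.29e-06). *TUSC3*, a subunit of the oligosaccharyltransferase that has also been described in magnesium uptake, had 8.50, 6.89 and 11.4 in the *DLK2* state and 0.720, 0.640 and 1.11 in the *GJA1* and *IGFBP5* state (-4.27, SE 0.30, edgeR adjusted p = 5.31e-11). The *GJA1* state held a single *TUSC3* UMI, in cow 3. *NIPAL2* was higher by 0.78 and lost the call in thinned cells. *SLC41A2*, a relative of *SLC41A1*, was lower by a log2 fold change of -1.83 (SE 0.60, edgeR adjusted p = 0.0130) and lost the call without the cow in the model and with at least 1 UMI setting the states.

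Of 2 claudins, *CLDN19*, part of the paracellular route for magnesium and calcium in the kidney, had 0, 2.13 and 18.5 CPM in the *GJA1* and *IGFBP5* state and 0.118, 1.58 and 2.23 in the *DLK2* state in cows 1, 2 and 3. Only cow 3 was far apart, and the log2 fold change of 1.81 (SE 0.45, edgeR adjusted p = 0.00152) became -0.62 without it, when the threshold was not passed. It also lost the call with DESeq2, without the cow in the model and with at least 1 UMI setting the states. Of 5 regulators, *RXRA*, the retinoid receptor that pairs with the vitamin D receptor, was higher by 0.36 and *VDR* itself lower by a log2 fold change of -0.91 (SE 0.37, edgeR adjusted p = 0.0418), a call that 7 of 11 alternatives lost, each single cow left out among them. *ITPR1*, *ITPR2*, *PKD2*, *TUSC3*, *MRS2*, *CALML5*, *CALM3*, *CANX*, *ATP2A2* and *TMBIM6*, 10 of the 19, were called in every alternative, and *RXRA* in each but the one without the cow in the model.

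**Figure D5:**
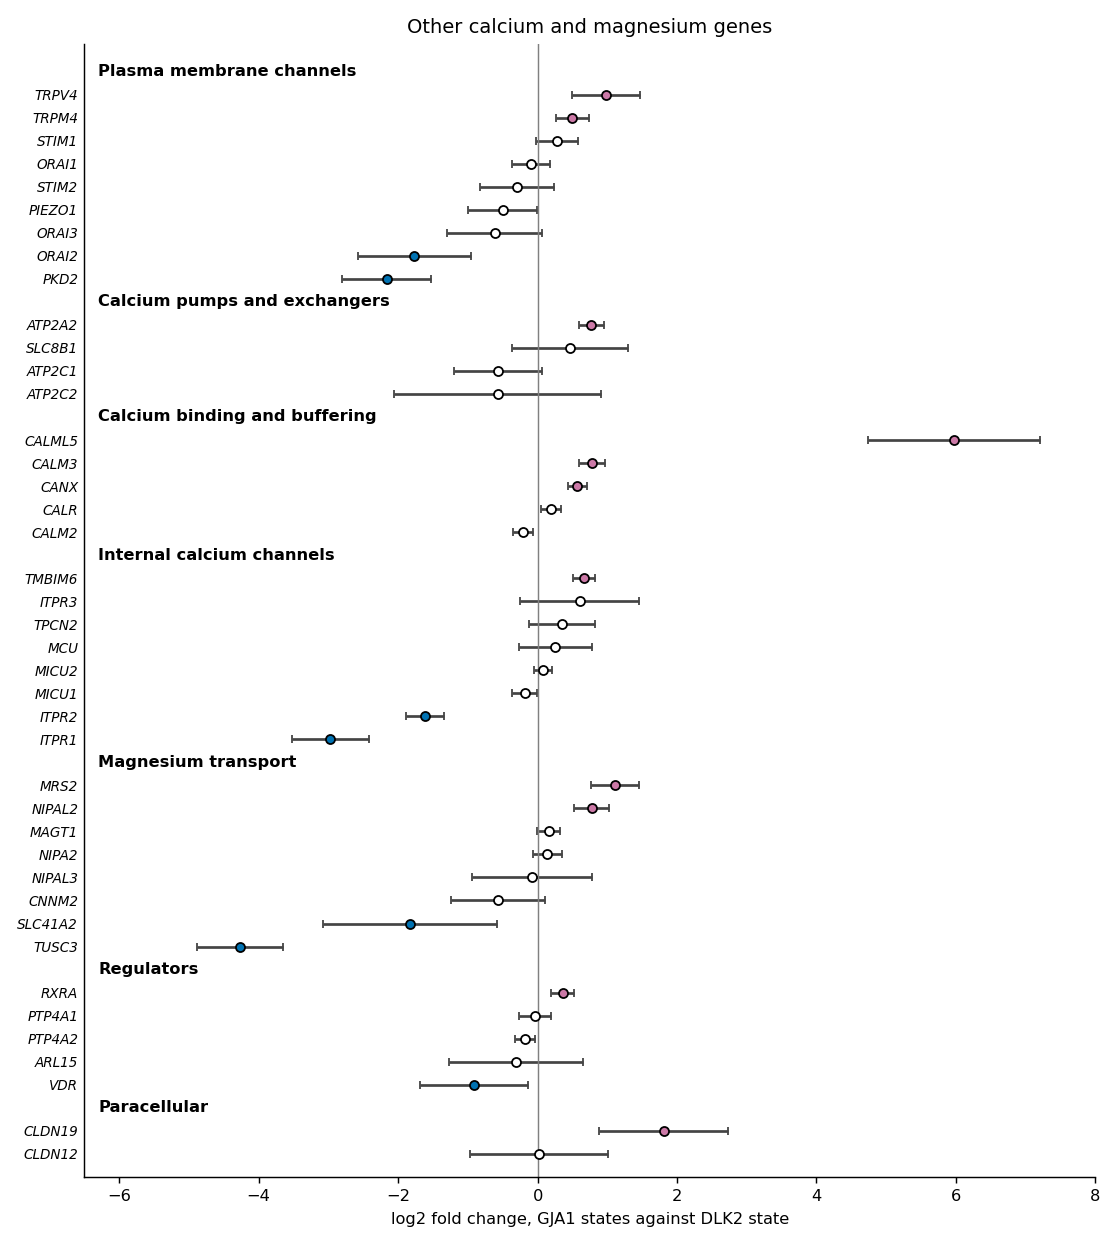
Log2 fold changes (horizontal axis) of the other calcium and magnesium genes reported here that passed the count filter, in the *GJA1* states against the *DLK2* state, by group, with 95% intervals; pink points were called higher, blue points lower and white points neither. *CALML5* at 5.97 and *TUSC3* at -4.27 lie farthest from 0.

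In the other comparisons 2, 6 and 0 of the 42 were called, against 269, 1404 and 462 of all 10760 genes. Between the *GJA1* and *IGFBP5* state and the *GJA1* state, *RXRA* was higher (log2 fold change 0.48, SE 0.11, edgeR adjusted p = 0.0220) and *CALML5* lower (-2.86, SE 0.45, adjusted p = 0.000523), and 40 of 42 did not pass. *CALML5* lost that call without cow 3, without the cow in the model and without cells under 2% mitochondrial UMIs, and *RXRA* without cow 2 or cow 3, without the cow in the model and in thinned cells. In the *DLK2* state against the no-marker state, *ORAI2* (0.70), *ITPR1* (0.58) and *TUSC3* (0.54) were higher and *CALM3* (-0.38), *ATP2A2* (-0.35) and *CANX* (-0.30) lower. Each of the 6 lost the call without the cow in the model, where 9 genes of 10760 were called in place of 1404. *ORAI2* kept its call in only 3 of 10 alternatives, and *CALM3* and *CANX* each in 7 of 12. *ATP2A2* and *TUSC3* each kept theirs in 10 of 12 and *ITPR1* in 11 of 12. Without cow 2, *ORAI2*, *CALM3*, *CANX* and *ATP2A2* lost the call. In the *IGFBP5* state against the no-marker state 0 of 42 were called by edgeR, with 8 at an unadjusted p under 0.05, and DESeq2 called 0 of the 17 to which it gave an adjusted p.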

How the data were processed

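Rumen epithelial cells of 3 cows were profiled with 1 library each. Per the file headers and the study's methods, the authors made the deposited UMI counts with Cell Ranger 3.1.0 and Ensembl gene models, filtered cells in Seurat, identified doublets with DoubletFinder and kept epithelial cells only; no further doublet caller was run. The authors also deposited natural log values, scaled to 10000 UMIs per cell, which named the 19533 count rows, since the log of the scaled counts matched them within 1e-06 in every row.

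The members, gene lists and state limits were chosen with earlier results of these data known. Cells were assigned to the 6 states, and their UMIs were summed per cow and state, giving 18 sums. edgeR 4.0.16 (R 4.3.3) tested the sums with TMM scaling, filterByExpr and the quasi-likelihood test, with cow as a block, and 10763 genes passed the filter (10760 without the genes that set the states). A gene was called at a Benjamini-Hochberg adjusted p under 0.05 and an absolute log2 fold change above 0.25. The 4 comparisons set the mean of both *GJA1* states against the *DLK2* state, the *GJA1* and *IGFBP5* state against the *GJA1* state, and the *DLK2* and *IGFBP5* states each against the no-marker state. The study's own tests had no cow term. States share cows: after the mean of each state was removed, sums from the same cow correlated at 0.593 to 0.619 on average, so cow was kept as the pairing. Removing that mean by itself makes the value for different cows, -0.334, negative, so nothing was read from it. DESeq2 1.42.0 was an alternative. Python 3.11.15 (numpy 2.4.6, scipy 1.17.1, pandas 2.3.3) gave levels, exact Poisson and binomial 95% intervals and limits of 3 counts for a count of 0, which cover counting error only. Mantel-Haenszel ratios over cows, added after the values were seen, have no interval. Neighbouring states were called beyond their spread where the mean difference within cows exceeded its SD. The states were first sorted by mean, which fixed the sign of that difference, so this is a description and not a test.

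Named were all members, and up to 3 genes in each direction among the other calcium and magnesium genes of a comparison, with those further named said to be so; 1 gene of the list is counted but not reported here. On simulated counts for the *DLK2* state against the no-marker state with 10763 genes, 92% of 2-fold and 100% of 4-fold changes were recovered and 0.104% of unchanged genes were called. The simulated means held no difference between cows beyond the size of each sum, and changes were set in the *DLK2* state only. These rates were not measured for the comparisons with the smaller *GJA1* states and do not carry over to them. Totals were 38912809, 94856658 and 104189434 UMIs in cows 1, 2 and 3. A cell counted as cycling with at least 3 UMIs of a cycling list. Thinning to 5000 UMIs left out 1518 cells.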

Additional observations from a re-analysis of the deposited data

How the results depend on the processing

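Counts of called genes depended on the pairing by cow. With no replicate block the *GJA1* states against the *DLK2* state had 3073 called genes in place of 5682, and the other comparisons had 5, 9 and 0 in place of 269, 1404 and 462 (0 with 180 genes at an unadjusted p under 0.05). In thinned cells the first comparison had 3327 and the *GJA1* and *IGFBP5* state against the *GJA1* state 59. The latter had 441 without a filter on low counts, 176 without cells under 2% mitochondrial UMIs and 83 to 169 with 1 cow left out. The *DLK2* state against the no-marker state had 935 with stricter states, 643 without cycling cells and 432 to 998 with 1 cow left out. The *IGFBP5* state against the no-marker state had 840 without a filter, 842 with stricter states and 53 to 594 with 1 cow left out, 53 being without cow 2. The causes were not tested.

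Of 140 alternative values of the members' log2 fold changes, 105 kept sign and call, 30 had the other sign, 4 lost a call and 1 gained one. Of the values of the other sign none passed the threshold. Ranges given below with 1 cow left out span all such fits and hold values of both signs. For *ATP2B1* in the *GJA1* states against the *DLK2* state, the other sign came with 0.027 under stricter states and 0.037 without cycling cells. It also came with 0.086 without cow 2 and 0.13 without cow 3. Without cow 1 *ATP2B1* had -0.26, which kept the sign and gained the call. Between the states with *GJA1* it had -0.0079 with DESeq2, -0.0037 with no replicate block, -0.079 with stricter states, -0.56 in thinned cells, -0.032 without cycling cells and -0.062 to 0.20 with 1 cow left out; *TRPM7* had -0.17 with at least 1 UMI per state gene, and *SLC41A1* 0.48 with that setting, 0.14 without cycling cells and -0.91 to 0.73 with 1 cow left out. In the *DLK2* state against the no-marker state *TRPM7* had -0.027 with no replicate block, -0.084 with at least 1 UMI, -0.018 without cycling cells and -0.077 to 0.11 with 1 cow left out, and *SLC41A1* -0.19 with stricter states and -0.043 to 0.19 with 1 cow left out. In the *IGFBP5* state against the no-marker state *ATP2B1* had 0.10 in thinned cells, *TRPM7* 0.011 with stricter states, 0.024 in thinned cells and -0.11 to 0.015 with 1 cow left out, and *SLC41A1* -0.12 with at least 1 UMI, -0.14 with stricter states, -0.11 without cycling cells and -0.012 to 0.17 with 1 cow left out. *CLDN19* had -0.62 to 2.69 in the first comparison with 1 cow left out, -0.62 being without cow 3.

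*TRPV3*, *TRPM6*, *ATP2B4* and *CNNM4* had 9 to 193 UMIs in all, which limits every statement on them, and 3 animals of 1 condition limit the rest.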
